A study of Homo sapiens with 9 samples.

Results

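RNA of ACHN cells treated with 50 nM piericidin A was compared with RNA of ACHN cells given 0.1% DMSO, with 3 libraries in each group. The series was made to study how this compound acts on renal carcinoma cells. These 6 libraries, chosen by their labels, are part of a series of 9, in which the other 3 came from cells given 25 nM piericidin A. ACHN is an established adherent line from a human renal cell carcinoma, so every group is 1 line and no normal kidney cells were included. All groups were grown in MEM medium in 6-well plates, and total RNA was sequenced on an Illumina HiSeq instrument. The labels call the 3 samples of a group duplicates and do not say whether they were separate cultures, so the p-values measure the spread between these samples, which may be technical. The length of treatment, the selection of RNA, the strandedness of the libraries and whether the treated wells also held DMSO are not stated.

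Piericidin A is a ubiquinone-like compound made by Streptomyces that binds complex I, the first enzyme of the mitochondrial respiratory chain, and stops electrons from passing from NADH to ubiquinone. Complex I is built from subunits of the nuclear and of the mitochondrial genome. Renal carcinomas are known for their reliance on hypoxia-inducible factor (HIF), a transcription factor that is degraded when prolyl hydroxylases have oxygen, and for a high rate of glycolysis.

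The deposited values are FPKM, fragments scaled for transcript length and by a factor per library, a level per gene length. Whole fragments recovered from them numbered 26806226 to 29245674 in the DMSO libraries and 24365472 to 26395689 at 50 nM. These totals were 1.0011 to 1.0119 times the library factor in DMSO and 0.9425 to 0.97 times at 50 nM. Values at 50 nM therefore stand lower against DMSO than with scaling to these totals. The first principal component of the 9 libraries held 47.0% of the variance. Replicates of the 50 nM group differed from each other by more than those of DMSO, with a chi-square per degree of freedom of 4.77 to 7.88 against 1.75 to 2.39. Of the 25 nM libraries replicate 3 stood apart, at 15.7 and 17.8 from the others, which were 2.37 from each other. Counts against 25 nM that changed without it are given beside them, as are the calls of EGFR and MT-ND6. The call of EPAS1 against 25 nM is given from all 9 libraries only. Of 12 markers of renal epithelium, 11 had a mean of at least 0.5 FPKM, and their summed level was 1006 to 1031 FPKM in DMSO and 816 to 858 at 50 nM. No marker of endothelium (0 of 8), leukocytes (0 of 10) or erythroid cells (0 of 5) reached 0.5 FPKM, and the summed level of each of these lists was at most 0.679 FPKM. Among 8 markers of fibroblasts and mural cells 4 reached 0.5 FPKM, with a summed level of 9.67 to 11.3 FPKM over the 6 libraries. FPKM is relative to the RNA sampled in a library, so fewer cells and less RNA per cell cannot be told apart in any value below.

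Of the 30673 genes above 0 in the series, 15541 had at least 0.5 FPKM in at least 3 libraries and were tested. A gene was counted as higher or lower at a Benjamini-Hochberg adjusted p under 0.05 in limma, a linear model across all genes, fitted to log2(FPKM + 0.1). By that rule 60.7% of the tested genes changed, 29.2% upward (4540 genes) and 31.5% downward (4901 genes). With so many calls, a count of changed members in a gene group is read below against the share of its class. Every fold change below is a difference on the log2(FPKM + 0.1) scale, 50 nM minus DMSO, with its standard error (SE), and it understates the change of genes near 0 FPKM. Where a number alone stands in brackets after a gene or its levels, it is that log2 difference.

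Protein-coding genes had more falls than rises, and genes of other types more rises than falls. Among 11722 protein-coding genes, 25.7% were higher (3010) and 39.9% were lower (4681), with a median of -0.09. Scaling the libraries to fragment totals turned this split to 3670 higher and 3927 lower, and scaling to the median coding gene to 3836 higher and 3782 lower. Among 2882 genes of other annotated types 42.1% were higher (1213) and 7.29% were lower (210), with a median of 0.48. Changes of at least 2-fold were found in 373 coding genes upward, 3.18% of those tested, and in 230 downward, 1.96%. The test of 50 nM against 25 nM, which shares the 50 nM libraries with the comparison to DMSO, called 13.2% of coding genes higher (1542) and 24.3% lower (2851) at the higher dose. Of the other types, 23.2% were higher (668) and 1.94% lower (56) at 50 nM than at 25 nM. Without 25 nM replicate 3 these 4 counts were 1755, 3329, 602 and 62. Without 50 nM replicate 1 they were 1030, 1929, 404 and 36.

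**Figure D1:**
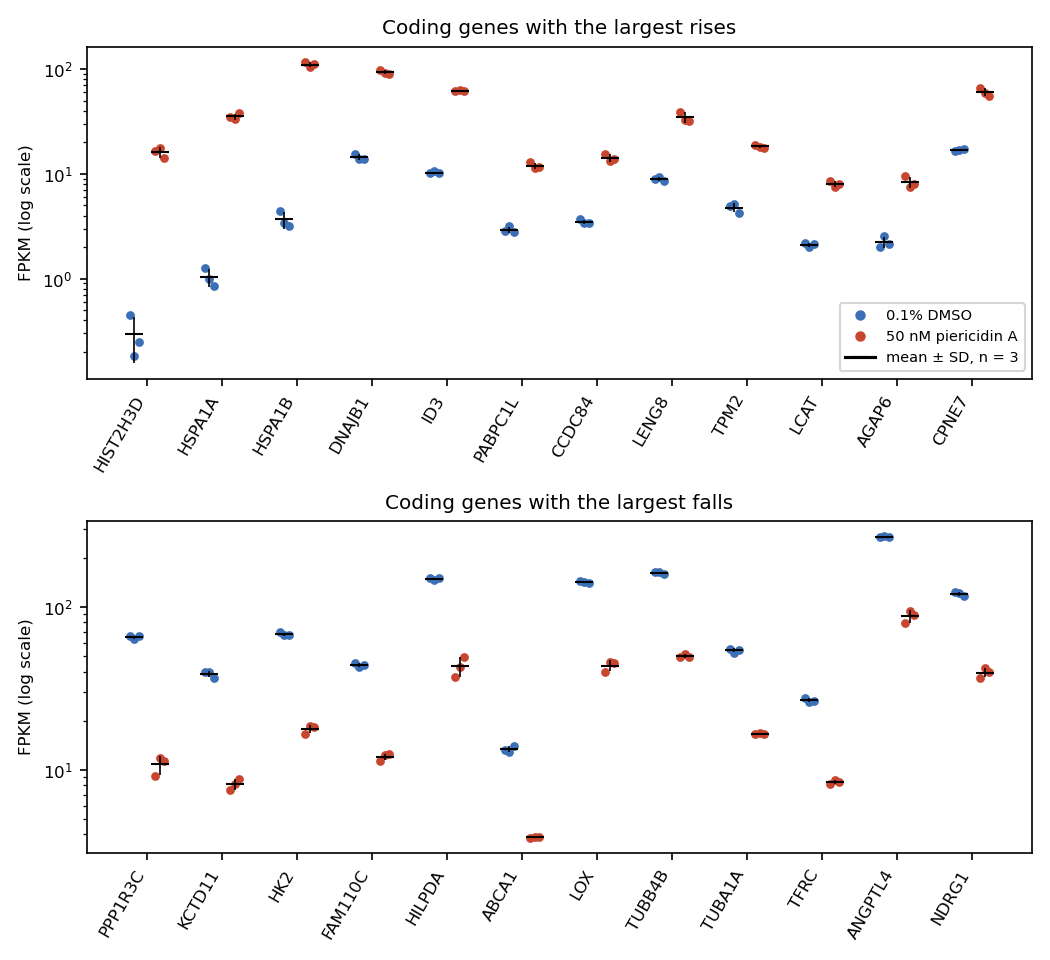
FPKM on a log axis of the 12 coding genes with the largest rises (upper panel) and the 12 with the largest falls (lower panel), each point a library and each bar the mean with its SD (n = 3). A mean of at least 5 FPKM and no overlap between the 3 DMSO and the 3 50 nM libraries were conditions for choosing the 24 genes. HSPA1A is at 0.856 to 1.25 against 33.4 to 37.9 FPKM, and PPP1R3C at 63.5 to 65.8 against 9.10 to 11.8 FPKM.

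The promoters of 5 genes among the largest changes are shown first, and the share of promoters with the short motifs marked in them is then given for some of the gene groups described next. They are RefSeq sequences of build GRCh38.p14, from 250 bases before to 50 bases after the gene start, read in the direction of the gene. Capitals in HSPA1A mark GAANNTTC, 2 units of the element bound by heat shock factors in one arrangement. In the other 4 genes capitals mark ACGTG or GCGTG on either strand (CACGT and CACGC on the strand shown), the core of the element that HIF binds. Their positions are chr6:31815293-31815592 on the plus strand for HSPA1A, chr10:91633022-91633321 on the minus strand for PPP1R3C, chr17:7351912-7352211 on the plus strand for KCTD11, chr2:74833877-74834176 on the plus strand for HK2 and chr5:122078210-122078509 on the minus strand for LOX.
HSPA1A: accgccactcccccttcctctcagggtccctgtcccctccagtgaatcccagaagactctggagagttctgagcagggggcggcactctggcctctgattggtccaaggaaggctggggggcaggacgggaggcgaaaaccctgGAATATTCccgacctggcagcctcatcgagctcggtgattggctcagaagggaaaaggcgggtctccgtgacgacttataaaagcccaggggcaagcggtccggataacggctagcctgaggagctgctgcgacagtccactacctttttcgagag
PPP1R3C: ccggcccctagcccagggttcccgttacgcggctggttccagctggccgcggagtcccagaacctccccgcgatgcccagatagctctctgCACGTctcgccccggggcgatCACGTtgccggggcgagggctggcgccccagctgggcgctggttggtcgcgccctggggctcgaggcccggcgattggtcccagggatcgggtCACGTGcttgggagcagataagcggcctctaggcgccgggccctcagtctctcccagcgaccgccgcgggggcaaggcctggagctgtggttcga
KCTD11: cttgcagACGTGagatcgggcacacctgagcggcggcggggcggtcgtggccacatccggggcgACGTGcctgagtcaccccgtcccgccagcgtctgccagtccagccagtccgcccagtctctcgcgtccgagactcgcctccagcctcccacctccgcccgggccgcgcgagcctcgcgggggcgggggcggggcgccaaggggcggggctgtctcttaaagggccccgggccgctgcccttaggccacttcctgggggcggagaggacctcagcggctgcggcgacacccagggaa
HK2: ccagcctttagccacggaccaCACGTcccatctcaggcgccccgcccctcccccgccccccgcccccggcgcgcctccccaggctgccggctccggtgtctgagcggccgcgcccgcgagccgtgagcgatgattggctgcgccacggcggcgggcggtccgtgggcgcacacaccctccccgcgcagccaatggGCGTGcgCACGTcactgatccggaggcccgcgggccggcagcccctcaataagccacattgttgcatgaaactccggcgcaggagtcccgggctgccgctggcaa
LOX: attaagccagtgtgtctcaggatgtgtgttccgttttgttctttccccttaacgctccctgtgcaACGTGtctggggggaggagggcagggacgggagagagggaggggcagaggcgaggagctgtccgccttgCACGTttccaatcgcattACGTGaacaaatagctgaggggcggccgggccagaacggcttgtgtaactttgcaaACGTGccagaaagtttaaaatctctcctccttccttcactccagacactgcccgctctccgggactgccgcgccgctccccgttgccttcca

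PPP1R3C held 4 matches in this window, a CACGTG counting on both strands, with the first at -159 from the gene start. LOX held 4, HK2 held 3 and KCTD11 held 2. ACGTG on either strand was present in 21.6% of all 27305 RefSeq promoters and in 27.2% of the 9095 promoters matched to tested coding genes. It was present in 16 of the 22 matched HIF target promoters (72.7%) and in 8 of 24 for glycolysis (33.3%). Among coding genes at least 2-fold lower at 50 nM it was present in 27.3% of 161 matched promoters, and among those at least 2-fold higher in 24.5% of 249. GCGTG was present in 36.3% of all RefSeq promoters, in 51.3% of those matched to tested coding genes and in 50.0% of those of HIF targets. Either form, as marked above, was present in 64.0% of promoters of tested coding genes, 20 of 22 of HIF targets, 16 of 24 of glycolysis genes, 55.9% of genes at least 2-fold lower and 59.4% of genes at least 2-fold higher. HSPA1A held 1 GAANNTTC, at -106. That arrangement was present in 6.87% of all promoters, in 4.39% of those matched to tested coding genes and in 6 of 22 for the HSP70, HSP90 and J-protein genes. The reverse arrangement, TTCNNGAA, was present in 7.84% and 5.83% of the same first 2 sets. Among coding genes at least 2-fold higher GAANNTTC was present in 4.02% of 249 matched promoters. HSPA1B held 1 GAANNTTC, and DNAJB1 and HSP90AA1 held neither arrangement. A match is a description of letters in this window and not of binding.

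Among the largest rises in coding genes were those of inducible chaperones of the cytosol, which hold unfolded proteins and are the classic output of heat shock factor 1. HSPA1A, an inducible HSP70, was at 1.25, 0.993 and 0.856 FPKM in DMSO and at 34.7, 33.4 and 37.9 FPKM at 50 nM. The 50 nM libraries lay far above DMSO, and the log2 fold change was 4.98 (SE 0.13, adjusted p = 1.04e-07). Its near-identical neighbour HSPA1B rose from 3.67 ± 0.674 to 111 ± 6.11 FPKM (mean ± SD, n = 3; log2 fold change 4.89). Reads of the pair can be split between them, so their separate levels are uncertain. DNAJB1, the J-protein partner of HSP70, was at 15.5, 14.0 and 14.0 FPKM in DMSO and at 98.8, 91.8 and 90.6 FPKM at 50 nM (2.68). HSP90AA1, the inducible HSP90, rose from 152 ± 1.17 to 427 ± 25.2 FPKM (1.48), and HSPE1, the mitochondrial co-chaperonin HSP10, from 8.19 ± 0.254 to 29.3 ± 1.91 FPKM (1.82). DNAJB1 overlaps TECR, HSP90AA1 overlaps WDR20 and HSPE1 overlaps HSPD1 in the annotation.

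The rise did not extend to the whole chaperone family. Among 23 tested HSP70, HSP90 and J-protein genes, 11 were higher, 7 lower and 5 not called, with a median of 0.05. The lower count fell to 4 under either rescaling of the libraries or without DMSO replicate 3. BAG3, a nucleotide exchange factor of HSP70, fell from 17.8 ± 0.612 to 12.9 ± 0.263 FPKM (-0.46), and HSPA4, an HSP110 protein, from 28.2 ± 0.236 to 21.6 ± 0.805 FPKM (-0.39). Heat shock factors, HSP90 co-chaperones and small heat shock proteins had 11 of 17 members higher and 2 lower. They included HSPB1 (1.05), the small heat shock protein HSP27, HSF4 (1.10), AHSA1 (0.92), an activator of the HSP90 ATPase, and STIP1 (0.59), which hands clients from HSP70 to HSP90. Against 25 nM, 12 of the 23 chaperone genes were lower at 50 nM and 0 were higher, next to 24.3% and 13.2% of coding genes. DNAJB1 was lower by 0.98 on the log2 scale (adjusted p = 0.000282), and HSPA1A was not called (-0.10, adjusted p = 0.575). HSPA6, a strictly inducible HSP70 named here for this contrast, rose from 0.344 ± 0.125 to 7.13 ± 0.836 FPKM (4.06) and was lower at 50 nM than at 25 nM (log2 difference -1.98, adjusted p = 0.000411).

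Other large coding rises had varied roles. ID3, an inhibitor of basic helix-loop-helix transcription factors, rose from 10.3 ± 0.235 to 62.4 ± 1.06 FPKM (2.59), and its relative ID2 from 19.5 ± 0.330 to 35.7 ± 2.29 FPKM (0.87). TPM2, an actin-binding tropomyosin, was at 4.92, 5.13 and 4.23 FPKM in DMSO and at 18.9, 18.1 and 17.7 FPKM at 50 nM (1.92). CPNE7, a calcium-dependent phospholipid-binding copine, rose from 16.8 ± 0.451 to 60.3 ± 5.34 FPKM (1.83). LCAT (1.88), which esterifies cholesterol in plasma, overlaps SLC12A4. PABPC1L (2.0), LENG8 (1.94) and CCDC84 also overlap other genes, so their reads may not be their own.

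HIF targets fell as a group. All 27 tested HIF targets outside glycolysis were lower, against 39.9% of coding genes, with a median of -1.07 and a range of -1.70 to -0.30. All 3 untested members of the list, EGLN3, EPO and RORA, were below the level needed. At 50 nM 26 of the 27 were also lower than at 25 nM, against 24.3% of coding genes. LOX, which crosslinks collagen, was at 144, 141 and 139 FPKM in DMSO and at 39.8, 45.9 and 44.9 FPKM at 50 nM (-1.70, SE 0.07, adjusted p = 4.85e-07). ANGPTL4, an inhibitor of lipoprotein lipase, fell from 269 ± 1.96 to 87.3 ± 7.70 FPKM (-1.62) and overlaps ELAVL1. NDRG1, a stress-responsive gene of differentiation, fell from 120.2 ± 3.25 to 39.3 ± 2.54 FPKM (-1.61). CA12, a carbonic anhydrase of the cell surface, fell from 36.4 ± 0.524 to 13.8 ± 0.528 FPKM (-1.39), and INSIG2, which holds SREBP in the endoplasmic reticulum, from 33.6 ± 0.840 to 13.2 ± 0.0825 FPKM (-1.35). HILPDA, a lipid droplet protein that blocks lipolysis and is also known as a hypoxia gene, was at 149.9, 147 and 150.3 FPKM in DMSO and at 37.1, 42.7 and 49.3 FPKM at 50 nM (-1.80).

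The genes of the HIF system itself went both ways, with 5 of 13 higher and 6 lower. HIF1A, the regulated alpha subunit, was at 29, 29.6 and 29.6 FPKM in DMSO and at 43.8, 43.8 and 44.7 FPKM at 50 nM (0.58, SE 0.04, adjusted p = 6.45e-06). EPAS1, which encodes HIF-2 alpha, moved the other way, from 91.4, 87.1 and 87.3 FPKM to 37.5, 40.6 and 40.4 FPKM (-1.16, SE 0.06, adjusted p = 1.51e-06). Of the prolyl hydroxylases, EGLN1, itself counted among the HIF targets, fell (-0.95). HIF1A was not called between 50 and 25 nM (0.06, adjusted p = 0.284), and EPAS1 was lower at 50 nM (-0.43, adjusted p = 0.00142).

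Glucose handling fell with the HIF targets. Among 27 tested genes of glucose transport, glycolysis and lactate export 24 were lower and 0 higher, with a median of -0.58, and 25 were lower at 50 nM than at 25 nM. LDHB was called higher after either rescaling of the libraries, and PFKM with scaling to the median coding gene. HK2, the hexokinase bound to mitochondria, was at 69.5, 66.7 and 67.3 FPKM in DMSO and at 16.5, 18.5 and 18.2 FPKM at 50 nM (-1.93, SE 0.11, adjusted p = 1.86e-06). SLC2A1, the glucose transporter GLUT1, fell from 162 ± 6.06 to 83.7 ± 4.56 FPKM (-0.95), PGK1, phosphoglycerate kinase, from 162 ± 4.20 to 88.0 ± 4.83 FPKM (-0.88), and PFKFB4, which makes the activator of phosphofructokinase, by -0.96 on the log2 scale. Among coding genes with a mean of at least 5 FPKM and no overlap of groups, the largest fall was in PPP1R3C. This gene encodes a subunit that brings protein phosphatase 1 to glycogen. It was at 65.8, 63.5 and 65.7 FPKM in DMSO and at 9.10, 11.8 and 11.3 FPKM at 50 nM (-2.59, SE 0.11, adjusted p = 5.65e-07). PPP1R3C was lower at 50 nM than at 25 nM by -1.42 (adjusted p = 0.00018).

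RNA of the mitochondrial genome made up a larger part of the libraries at 50 nM. Mitochondrially encoded genes held 2.65%, 2.63% and 2.32% of recovered fragments in DMSO and 5.75%, 5.20% and 6.84% at 50 nM, without overlap. The means were 2.53 ± 0.182% and 5.93 ± 0.831%, with an exact two-sided permutation p of 0.1, the smallest that 3 against 3 libraries allow. Its messenger RNAs held 1.58 ± 0.120% and 4.09 ± 0.616%, and its ribosomal RNAs 0.941 ± 0.0616% and 1.82 ± 0.213%. Since shares sum to 100%, nuclear coding genes held 96.3 ± 0.183% and 92.3 ± 0.832%.

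The 13 proteins of that genome are core subunits of complexes I, III, IV and V, and 11 were higher and 0 lower, with a median of 1.29. MT-ND4, a complex I subunit of the proton-pumping arm, was at 1877, 1879 and 1588 FPKM in DMSO and at 5568, 4815 and 7188 FPKM at 50 nM (1.70, SE 0.17, adjusted p = 4.60e-05). MT-CO1, the catalytic subunit of complex IV, rose from 3125 ± 241 to 7658 ± 851 FPKM (1.29), MT-CO2 from 2184 ± 168 to 6679 ± 899 FPKM (1.61) and MT-CO3 from 2746 ± 193 to 7805 ± 1310 FPKM (1.5). The 7 complex I subunits did not move alike. MT-ND4L (1.67) and MT-ND2 (1.16) rose with MT-ND4, and MT-ND3 (0.55) rose less.
MT-ND1 rose from 1009 ± 100.2 to 1449 ± 272 FPKM (0.51, adjusted p = 0.0211), a call that was lost without 50 nM replicate 3 or without DMSO replicate 3. MT-ND5 was at 742, 760.4 and 665 FPKM in DMSO and at 763, 659 and 965 FPKM at 50 nM, so its groups overlapped (0.12, adjusted p = 0.452). MT-ND6, the only one of these proteins encoded on the other strand, also overlapped, at 536, 546 and 468 FPKM against 473, 412 and 626 FPKM (-0.06, adjusted p = 0.779). Of the 13, 10 were higher and 1, MT-ND6, lower at 50 nM than at 25 nM. Without 25 nM replicate 1 there were 6 higher, and without 25 nM replicate 3 there were 11. MT-ND6 was not called without 25 nM replicate 2 or 3 or 50 nM replicate 1 or 2. The ribosomal RNAs MT-RNR2 (0.91) and MT-RNR1 (0.60) rose, and neither was called between 50 and 25 nM, other than MT-RNR1 without 50 nM replicate 3 (-0.38, adjusted p = 0.0439). In the annotation MT-ND4 overlaps MT-ND4L, and MT-CO3 overlaps MT-ATP6. MT-ATP8 was listed at 3.12 ± 0.751 FPKM in DMSO against 908 ± 74.5 FPKM for MT-ATP6, which it overlaps and with which it shares a transcript, so its own value (1.34) is uncertain.

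**Figure D2:**
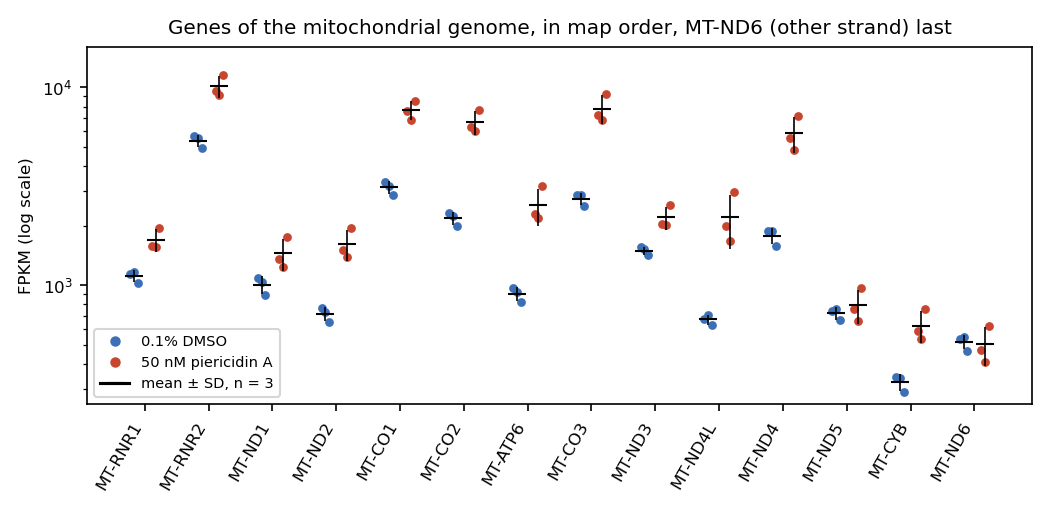
FPKM on a log axis of 14 genes of the mitochondrial genome in map order, with MT-ND6 of the other strand last and each library a point beside the mean and SD (n = 3). MT-ND4 stands at 1588 to 1879 FPKM in DMSO and 4815 to 7188 FPKM at 50 nM, while the points of MT-ND5 and MT-ND6 overlap, and MT-ATP8 and the transfer RNA gene MT-TP are not drawn.

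Nuclear subunits of the chain rose by less. Of 35 tested nuclear complex I subunits 25 were higher and 1 lower, with a median of 0.34. NDUFS6, an accessory subunit with a zinc site, rose from 26.3 ± 0.774 to 43.0 ± 0.632 FPKM (0.71), and NDUFS3, a core subunit of the matrix arm, rose too (0.51). NDUFS1 was the member that fell (-0.25). NDUFV2 had the largest fold change (2.12) at a level of 0.302 ± 0.0134 and 1.65 ± 0.174 FPKM, and overlaps NDUFV2-AS1. Assembly factors of complex I had 13 of 15 higher and 2 lower (NUBPL, -0.35, and TMEM186, -0.50), with NDUFAF5 at 0.90 and NDUFAF3 at 0.58. ATP synthase had 11 of 16 higher and 0 lower (median 0.40). Complexes II to IV with cytochrome c had 9 of 25 higher and 1 lower, which became 15 higher in a fit of the 6 libraries alone and 17 or 18 with rescaled libraries. Against 25 nM, few nuclear subunits of complex I were higher (2) or lower (4) at 50 nM, and leaving out 1 library gave 2 to 4 higher and 2 to 6 lower. Factors of mitochondrial transcription and RNA stability were split, with 12 of 32 higher and 10 lower. POLG2, the accessory subunit of the mitochondrial DNA polymerase, rose (0.90), and TRMT10C, a subunit of mitochondrial RNase P, fell (-0.93), as did LRPPRC (-0.38), which stabilises mitochondrial messenger RNAs.
Mitochondrial ribosomal proteins had 39 of 75 higher and 12 lower (7 lower when libraries were scaled to the median coding gene). Protein import by the TIM and TOM complexes had 13 of 21 higher and 3 lower, among them TOMM40, the import pore, at 0.65. Fusion, fission and mitophagy genes had 8 of 16 lower and 1 higher (FIS1, 0.25), next to 39.9% and 25.7% of coding genes. The fallers BNIP3L (-1.29) and BNIP3 (-0.85) are mitophagy receptors that are also HIF targets. PRDX1, a cytosolic peroxiredoxin that reduces hydrogen peroxide, was at 154, 145 and 154 FPKM in DMSO and at 154, 168 and 174 FPKM at 50 nM. Its groups met at 154 FPKM, and the difference was not called (0.13, SE 0.06, adjusted p = 0.0996). PRDX1 was called higher with libraries scaled to fragment totals (0.20), to the median coding gene (0.22) or without 50 nM replicate 1 (0.18). Of 22 peroxiredoxin, thioredoxin, superoxide dismutase and glutathione peroxidase genes 10 were higher and 3 lower, with TXN, thioredoxin, at 0.48 and SOD2, the mitochondrial superoxide dismutase, at -0.87. Among NRF2 targets 6 of 20 were higher and 3 lower.

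Genes of growth signalling and of the extracellular matrix mostly fell. No tested growth factor receptor, receptor substrate or feedback gene was higher (0 of 20), and 16 were lower, with a median of -0.45. After either rescaling of the libraries 1, ERBB2, was higher. EGFR, the epidermal growth factor receptor, was at 125, 123 and 127 FPKM in DMSO and at 49.3, 47.7 and 44.8 FPKM at 50 nM, well apart (-1.41, SE 0.11, adjusted p = 1.03e-05). It overlaps EGFR-AS1, and its level at 50 nM did not pass the test against 25 nM (-0.29, adjusted p = 0.0732), though it was lower without 25 nM replicate 3 (-0.45, adjusted p = 0.000258). IRS2, an insulin receptor substrate, fell by -0.62, and AXL, a receptor tyrosine kinase, by -0.41. Of the TGF-beta pathway and its matrix targets 19 of 23 were lower and 2 higher, the latter TAGLN (1.07) and COL1A1 (0.71), both with group means under 3 FPKM. TGFBR2, the type II receptor, fell from 33.3 ± 0.297 to 18.3 ± 0.727 FPKM (-0.86).
YAP and TEAD targets had 16 of 22 lower and 3 higher, with CTGF at -0.90 and, among those higher, NUAK2 at 0.82 and GADD45B at 1.14. Lysyl oxidases and collagen hydroxylases had 10 of 15 lower and 3 higher, with PLOD2, a collagen lysyl hydroxylase, at -1.45 from 91.8 ± 1.14 to 33.5 ± 2.60 FPKM. Some genes stand on several lists: LOX, P4HA1, AXL and BHLHE40 are among those counted in more than 1.

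The immediate early genes, which respond to growth signals and stress within minutes, were lower in 18 of 25 and higher in 3, with a median of -0.37. RHOB, a small GTPase, fell from 72.8 ± 2.65 to 26.3 ± 1.18 FPKM (-1.47), and BTG2, an anti-proliferative gene, from 23.9 ± 0.455 to 11.7 ± 0.0831 FPKM (-1.03). JUN went the other way, from 139.7, 132 and 129 FPKM to 168, 184 and 176 FPKM (0.40). FOS, its usual partner in AP-1, named after its values were seen, had the largest fall of the list but uneven DMSO libraries, at 11.1, 5.48 and 4.40 FPKM against 0.896, 0.726 and 0.363 FPKM (-3.18, adjusted p = 0.000152). All 4 genes with a GADD45 name rose, as did 25.7% of coding genes: GADD45G (1.52), GADD45B (1.14), GADD45A (0.46) and GADD45GIP1 (0.39), the last a mitochondrial ribosomal component rather than a stress sensor. GADD45B was at 23.2, 22.5 and 24.8 FPKM in DMSO and at 51.1, 53.1 and 51.6 FPKM at 50 nM.
Of 24 BCL2 family and caspase genes 14 were lower and 3 higher. The lower ones included the survival protein MCL1 (-0.75) and the initiator CASP8 (-0.59), and the higher ones BAX (0.62), which opens the outer mitochondrial membrane, and DIABLO (0.67), which blocks inhibitors of apoptosis. Among p53, MDM2 and p53 targets 9 of 29 were higher and 14 lower, with DDB2 at 0.47 and SESN1 at -0.64.

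Integrated stress response genes did not move as a block, at 7 of 22 higher and 8 lower. ASNS, asparagine synthetase, rose from 9.96 ± 0.252 to 18.0 ± 0.443 FPKM (0.85), and TRIB3, a pseudokinase induced by CHOP, fell from 17.8 ± 0.549 to 10.1 ± 0.547 FPKM (-0.81). Endoplasmic reticulum chaperones and unfolded protein response genes had 7 of 25 higher and 12 lower, with HSPA5, the HSP70 of that compartment, at 0.50 and XBP1 at -0.41. Proteasome subunits had 18 of 31 higher and 2 lower (median 0.24), PSMA7 rising from 87.1 ± 1.28 to 129 ± 6.01 FPKM (0.56). Cytosolic ribosomal proteins had 43 of 82 higher and 2 lower (median 0.20), a count that fell to 25 to 28 without 50 nM replicate 2, 50 nM replicate 3 or any 1 DMSO replicate. These genes have many processed pseudogene copies. RPL7L1 fell (-0.45) and RPL22L1 rose (0.49). ODC1, the first enzyme of polyamine synthesis, fell from 94.1 ± 1.96 to 49.2 ± 1.53 FPKM (-0.94), and the amino acid transporter SLC38A2 from 77.9 ± 2.47 to 36.3 ± 1.38 FPKM (-1.10).

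Replication-dependent histones, whose messenger RNAs end in a stem loop and are normally made in S phase, had 24 of 36 tested members higher and 0 lower, with a median of 1.45. Without 50 nM replicate 3 there were 3 lower, HIST1H4D, HIST1H3G and HIST1H4C. HIST2H3D was at 0.449, 0.182 and 0.250 FPKM in DMSO and at 16.5, 17.6 and 14.1 FPKM at 50 nM (5.41, SE 0.24, adjusted p = 9.35e-07), the largest rise among coding genes of at least 5 FPKM. HIST1H1E, a linker histone, rose from 0.425 ± 0.184 to 7.33 ± 0.587 FPKM (3.87), and HIST1H3H from 0.380 ± 0.0185 to 2.48 ± 0.155 FPKM (2.43). With a stricter filter on low values 15 members were higher. HIST2H3D and HIST1H3H were below 0.5 FPKM in DMSO and passed the filter through treated libraries alone. The count of 24 is thus partly set by the selection. Histone copies are near-identical, and reads can be shared among them. Cell cycle genes changed less and without one direction: mitosis and spindle genes had 12 of 41 higher and 16 lower, and DNA replication genes 10 of 39 higher and 13 lower, with medians of -0.08 and -0.02. Scaling to the median coding gene turned both medians positive, and scaling to fragment totals the second alone. PTTG1, securin, was at 0.57, HMMR, a spindle protein, at -0.51, MCM6, a subunit of the replicative helicase, at -0.50 and GINS4, its cofactor, at 0.51. Both cell cycle lists were lower at 50 nM than at 25 nM in more genes than higher, 24 against 2 of 41 and 22 against 1 of 39. Without 25 nM replicate 3 these were 28 against 2 and 22 against 1. Coding genes as a whole leaned the same way in this contrast, with 24.3% lower and 13.2% higher at 50 nM.

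Splicing genes were mostly higher or not called. SR proteins, TRA2 proteins and the CLK and SRPK kinases that phosphorylate them had 11 of 20 higher and 3 lower. Against 25 nM 11 were higher at 50 nM, next to 13.2% of coding genes, and 14 without 25 nM replicate 3. SRSF2 was at 16.7, 15.3 and 15.5 FPKM in DMSO and at 38.4, 36.5 and 39.9 FPKM at 50 nM (1.27), and overlaps MFSD11. CLK2 rose from 11.6 ± 0.300 to 24.6 ± 1.36 FPKM (1.07), and SRSF11 from 17.2 ± 0.670 to 31.1 ± 1.51 FPKM (0.85), while the kinase SRPK2 fell (-0.43). Core spliceosome proteins had 22 of 35 higher and 4 lower, with PRPF3 at 1.12, SNRNP70, of the U1 particle, at 0.82 and CDC5L at -0.51. MAT2A, which makes S-adenosylmethionine, fell from 28.8 ± 0.916 to 11.5 ± 0.712 FPKM (-1.32) and was higher at 50 nM than at 25 nM by 0.66. Zinc finger genes of chromosome 19 had 52 of 130 lower and 10 higher, close to the 39.9% of coding genes that were lower, and 29 lower with the stricter filter. They included ZNF264 (-0.78) and, in the other direction, ZNF444 (0.48).

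Genes of cell identity and structure moved unevenly. Among 12 tested genes of the renal lineage and of tubule injury 3 were higher and 7 lower. SOX9, a transcription factor of repairing tubules, fell from 3.51 ± 0.307 to 0.944 ± 0.105 FPKM (-1.79). PAX8, a lineage factor of kidney epithelium, rose from 71.3 ± 1.26 to 87.9 ± 4.97 FPKM (0.30) and overlaps PAX8-AS1. Of 18 tested genes of epithelial and mesenchymal identity 2 were higher, 7 lower and 9 not called, with a median of -0.09. CDH1, E-cadherin, fell from 3.50 ± 0.159 to 1.03 ± 0.0806 FPKM (-1.67), and KRT19, a keratin of ducts, from 307 ± 6.29 to 192 ± 7.72 FPKM (-0.68). The cadherin CDH2 fell too (-0.51), while the keratin KRT7 was higher. TUBB4B, a beta tubulin, was at 163, 162 and 158 FPKM in DMSO and at 49.0, 51.3 and 49.2 FPKM at 50 nM (-1.69), and TUBA1A, an alpha tubulin that overlaps TUBA1C, fell from 54.0 ± 1.51 to 16.6 ± 0.227 FPKM (-1.69). Across the 10 tested alpha and beta tubulins, grouped after these values were seen, 9 were lower and 1, TUBA3D, higher, with a median of -0.84. Circadian clock genes had 10 of 17 lower and 3 higher, BHLHE41 at -1.41 and PER1 at 0.45.

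Lipid and iron genes held further large falls. ABCA1, which exports cholesterol, was at 13.1, 12.9 and 14.0 FPKM in DMSO and at 3.82, 3.84 and 3.83 FPKM at 50 nM (-1.77), and was not called between 50 and 25 nM (0.02, adjusted p = 0.892). SCD, which makes monounsaturated fatty acids, fell from 19.1 ± 0.329 to 6.49 ± 0.201 FPKM (-1.54). Fatty acid synthesis and desaturation had 9 of 15 lower and 2 higher. TFRC, the transferrin receptor, fell from 26.7 ± 0.726 to 8.40 ± 0.222 FPKM (-1.66). Of 14 iron uptake and storage genes 8 were lower and 3 higher, FTH1, the heavy ferritin chain, at -0.41 and ISCU, the scaffold for iron-sulfur clusters, at 0.43. KCTD11, an adaptor of a cullin ligase, fell from 38.6 ± 1.81 to 8.11 ± 0.601 FPKM (-2.24), and FAM110C from 43.9 ± 0.968 to 12 ± 0.564 FPKM. ARRDC3, an alpha-arrestin that lowers glucose uptake, fell from 100.1 ± 1.42 to 34.2 ± 2.49 FPKM (-1.55), and its relative TXNIP rose from 5.12 ± 0.460 to 9.47 ± 0.437 FPKM (0.88).

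**Figure D3:**
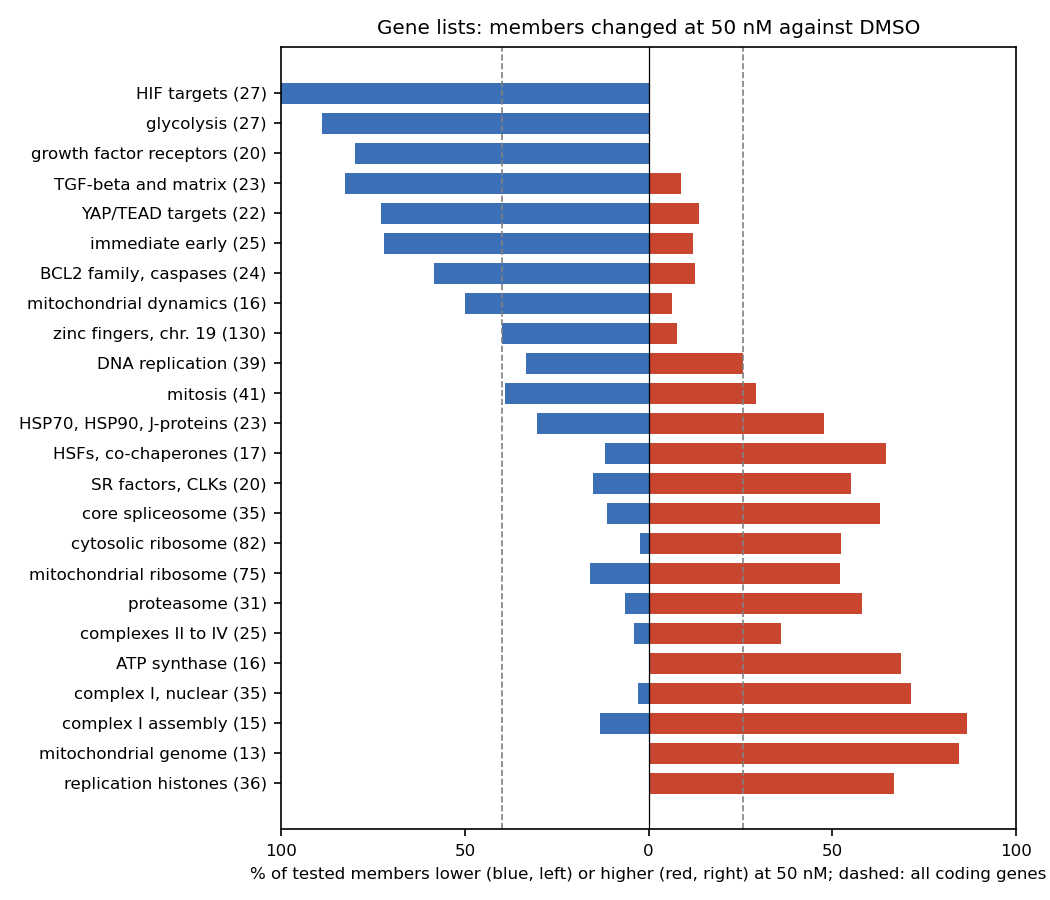
Percentage of the tested members of 24 gene lists that were lower (blue, left) or higher (red, right) at 50 nM than in DMSO, with the number tested in brackets and dashed lines at the 39.9% and 25.7% of all coding genes. HIF targets reach 27 of 27 on the lower side, and the histones, ATP synthase and the proteins of the mitochondrial genome have no member on that side.

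The direction of a coding gene went with its length. Nuclear coding genes were split by genomic span into 4 bins of equal size. In the bin of the shortest genes, up to 13301 bp, 41.0% were higher and 23.2% lower, with a median of 0.13. In the bin of the longest, over 78063 bp, 8.99% were higher and 60.4% lower, with a median of -0.29. In the bins between, 32.0% and 44.4% were lower. Over 11709 genes of these 6 libraries Spearman's rho between span and log2 fold change was -0.34, and between exonic length and log2 fold change -0.25. Gene lists differ in span, and its part in their counts was not tested. Of the cytosolic ribosomal proteins 65 of 82 were in the shortest bin, of the histones 33 of 36, of the mitochondrial ribosomal proteins 42 of 75 and of nuclear complex I subunits 15 of 35. The immediate early genes, which mostly fell, were short too, with 21 of 25 in that bin, and of the 27 HIF targets 8 were in the shortest and 6 in the longest bin. By chromosome, coding genes on 19 had 286 higher and 160 lower of 764, and those on 18 had 18 higher and 84 lower of 158.

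**Figure D4:**
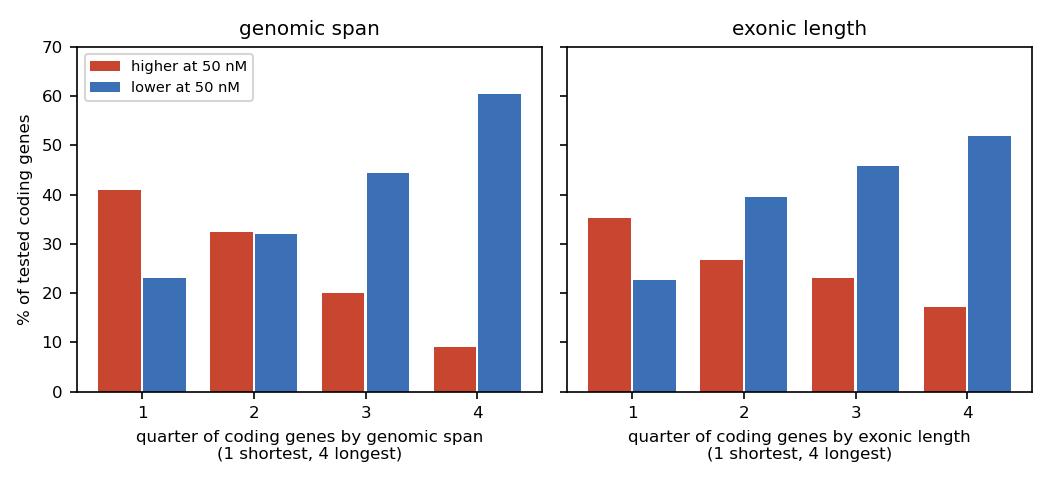
Percentage of tested nuclear coding genes higher (red) or lower (blue) at 50 nM than in DMSO, in 4 bins of equal size by genomic span (left) and by exonic length (right). The share lower climbs from 23.2% to 60.4% with span and from 22.6% to 52.0% with exonic length, while the share higher drops from 41.0% to 8.99% and from 35.3% to 17.3%.

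Genes of other types took a larger share of the libraries at 50 nM. Nuclear genes of these types held 1.17%, 1.20% and 1.18% of fragments in DMSO and 1.86%, 1.77% and 1.79% at 50 nM, with means of 1.18 ± 0.0148% and 1.81 ± 0.0461% and an exact permutation p of 0.1. Sense intronic genes, transcripts inside an intron of a host gene on its strand, had 115 of 194 higher and 4 lower. Antisense genes had 373 of 832 higher and 61 lower, pseudogenes 344 of 807 higher and 47 lower, and long intergenic RNAs (lincRNA) 158 of 598 higher and 74 lower. Of all genes of other types 42.1% were higher and 7.29% lower. Antisense genes (44.8% and 7.33%) and pseudogenes (42.6% and 5.82%) were near these shares. The lincRNA genes had 26.4% higher, near the 25.7% of coding genes, and 12.4% lower. Small structured types had few or no falls, with 26 of 42 snoRNA genes higher and 0 lower, 40 of 67 of the class misc_RNA higher and 0 lower, and 17 of 36 snRNA genes higher and 2 lower. The TEC class, transcripts yet to be experimentally checked, had 53 of 92 higher and 3 lower. The number of genes above 0 was 23641, 23954 and 24222 in DMSO and 26388, 25482 and 25938 at 50 nM (exact permutation p = 0.1). All of that gain was in genes without a type in the authors' tables, since a type was given for genes above 0 in all 9 libraries. Of the 937 tested genes without a type 317 were higher and 10 lower. None of the 937 was above 0 in all 9 libraries. Such a gene could pass the filter through the 50 nM libraries alone, so this split is partly set by the selection. Genes with a type could pass in this way too. Of the small types the filter left in 42 of 44 snoRNA, 67 of 68 misc_RNA and 36 of 36 snRNA genes.

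**Figure D5:**
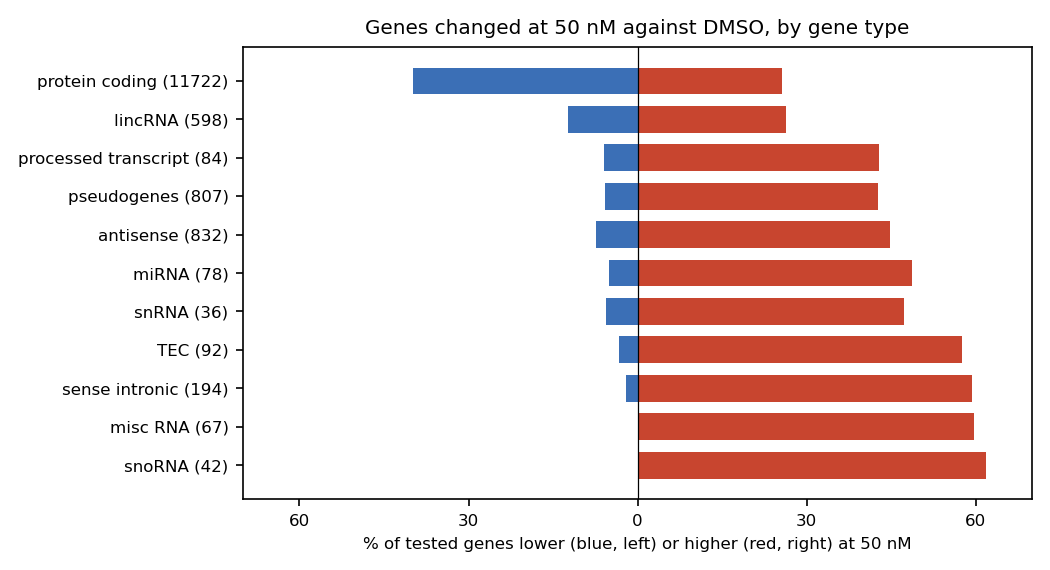
Percentage of tested genes of each annotated type that were lower (blue, left) or higher (red, right) at 50 nM than in DMSO, with the number tested in brackets. Protein-coding genes have 39.9% lower and 25.7% higher, while sense intronic, misc_RNA and snoRNA genes have 59.3%, 59.7% and 61.9% higher.

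Overlap with other genes went with the rises. Of 1861 genes of other types that overlap another annotated gene 945 were higher and 109 lower, and of 1021 that do not 268 were higher and 101 lower. Without strand, reads from a gene and its antisense partner, or from an intronic gene and unspliced RNA of its host, cannot be told apart. The 110 sense intronic genes that rose inside a coding host had a median of 1.35, while their hosts had a median of -0.19, with 27 hosts higher, 56 lower and 27 not called. A host of several such genes was counted once for each. Hosts of the 62 sense intronic genes not called had a similar median of -0.13, with 14 higher, 29 lower and 19 not called. KCNH1-IT1 was at 3.36, 2.45 and 2.68 FPKM in DMSO and at 12.3, 12 and 14.7 FPKM at 50 nM (2.17), inside KCNH1, a potassium channel gene that fell from 5.09 ± 0.0491 to 3.33 ± 0.114 FPKM (-0.60). ANKRD10-IT1 (1.48) rose inside ANKRD10 (0.81). The 337 antisense genes that rose beside a coding partner had a median of 1.48, and their partners included 116 higher, 133 lower and 88 not called. Partners of the 277 antisense genes not called included 56 higher, 126 lower and 95 not called. PAX8-AS1, on the other strand from PAX8 (0.30), is typed as a processed transcript and is not among these 337. It was at 0.288, 0.198 and 0.247 FPKM in DMSO and at 4.30, 3.37 and 3.60 FPKM at 50 nM (3.49, adjusted p = 3.86e-07). VPS9D1-AS1 rose from 0.782 ± 0.0509 to 5.10 ± 0.0398 FPKM (2.56).

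Nuclear long non-coding RNAs were among the genes that rose. MALAT1, an abundant RNA of nuclear speckles, was at 17.5, 20.5 and 19.1 FPKM in DMSO and at 117, 102 and 183 FPKM at 50 nM, where replicate 3 stood highest (2.77, SE 0.24, adjusted p = 2.76e-05). NEAT1, the scaffold of paraspeckles, rose from 14.9 ± 1.38 to 54.7 ± 5.05 FPKM (1.87) and was higher at 50 nM than at 25 nM by 1.30. MEG3, an imprinted RNA, rose from 4.63 ± 0.288 to 22.6 ± 1.39 FPKM (2.26), and LINC00342 from 1.06 ± 0.254 to 5.65 ± 0.946 FPKM (2.32). RN7SK, the small RNA that holds the elongation factor P-TEFb inactive, was at 5.25, 5.08 and 6.52 FPKM in DMSO and at 24.5, 28.1 and 34.3 FPKM at 50 nM (2.34), and MEPCE, its capping enzyme, fell (-0.75). SNORD3A, the U3 RNA of ribosomal RNA processing, rose from 1.31 ± 0.115 to 7.02 ± 1.39 FPKM (2.32).
Falls were fewer. MIR210HG, the host of a microRNA known to be induced by HIF, was at 3.8, 4.09 and 3.78 FPKM in DMSO and at 1.18, 1.05 and 1.27 FPKM at 50 nM (-1.66, adjusted p = 1.77e-05), and was not called against 25 nM (0.01, adjusted p = 0.977). LINC00657, also called NORAD, which binds Pumilio proteins, fell from 67.8 ± 1.12 to 33.2 ± 1.25 FPKM (-1.03), ABALON, which overlaps BCL2L1, from 2.46 ± 0.233 to 1.12 ± 0.244 FPKM (-1.08), and the T cell receptor segment TRGV8 from 2.32 ± 0.278 to 0.868 ± 0.319 FPKM (-1.37).

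The largest rises of annotated small RNAs were on the short arm of chromosome 21, where ribosomal DNA repeats lie. In the stretch that holds the genes starting from 8208473 to 8441949 bp (hg38), chosen after its values were seen, 7 of 9 tested genes were higher and 0 lower. The microRNA entry FP236383.10 was not called and did not move in 1 direction, at 1167, 882 and 1071 FPKM in DMSO against 48.9, 2959 and 32.9 FPKM at 50 nM (-2.62, SE 1.46, adjusted p = 0.154). Without 50 nM replicate 2, its high library, it was called lower. MIR3687-1 was at 9.08, 6.73 and 5.62 FPKM in DMSO and at 476, 411 and 293 FPKM at 50 nM (5.76, SE 0.26, adjusted p = 1.38e-06), and MIR3648-1 at 1.03, 1.04 and 1.90 FPKM against 93.1, 88.0 and 58.0 FPKM (5.83). The lincRNA CH507-513H4.3 rose from 2.07 ± 0.433 to 59.9 ± 9.69 FPKM (4.79). These entries lie in near-identical repeats, and longer precursor RNA of the repeat can be counted in them, so no value is that of a mature microRNA. The 78 microRNA entries held 0.0101 ± 0.000854% of fragments in DMSO and 0.0711 ± 0.0241% at 50 nM (exact permutation p = 0.1), and the single entry FP236383.7 of this stretch made up 86.3% of that difference. Without that entry the groups overlapped, at 0.00920 ± 0.000803% in DMSO and 0.0175 ± 0.0107% at 50 nM (exact permutation p = 0.3). Without the 7 entries of the stretch the share was 0.00285 ± 6.05e-05% in DMSO and 0.00520 ± 0.000628% at 50 nM (exact permutation p = 0.1).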

How the data were processed

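The analysis used 6 of 9 RNA-seq libraries, 3 of 0.1% DMSO and 3 of 50 nM piericidin A, and the 3 libraries of 25 nM where a dose difference is given and in the shared fit. The deposited table holds FPKM, computed by the authors, for 30673 genes. A second deposited table holds log2 FPKM of the 18859 genes above 0 in all 9 libraries, which equals the log2 of the first to within 0.005 and adds gene types, lengths and positions. The build was hg38 per the submitters' processing notes, and the aligner, counter and annotation release are not given in the sources used here. For 11237 genes the symbol, absent from the tables, was taken from the reference names, and 577 have none.

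FPKM times length was a whole multiple of 1 step per library for 100% of genes with a length (tolerance 0.01), which gave whole fragments for depth and shares. The test was limma 3.58.1 in R 4.3.3 (lmFit, then eBayes with both the trend and robust options) on log2(FPKM + 0.1) over all 9 libraries with group as the only term, for genes of at least 0.5 FPKM in at least 3 libraries, with Benjamini-Hochberg adjustment over 15541 genes. The fit was checked on simulated data. Shares of fragments were tested by exact permutation of the libraries, two-sided, whose smallest p is 0.1. 

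The comparison, the 63 gene lists (1649 members) and the rule for named genes were chosen with earlier results of these data known, so no list is independent evidence of its direction. The rule took the 12 largest rises and 12 largest falls of coding genes with a mean of at least 5 FPKM and no overlap of groups, and 6 of each for other types of at least 1 FPKM. It added up to 4 changed members of each described list with the smallest p, up to 2 of the other direction, PRDX1, the mitochondrially encoded complex I subunits and 2 genes of each other type. HSPA6, FOS, MT-ATP6, MT-ATP8, KCNH1, ANKRD10, TUBA3D, CH507-513H4.3 and the tubulins as a group were named outside the rule, after their values were seen. Of the 338 genes under the rule 156 overlap another annotated gene, and the text states this beside some of them only. Among the large falls HK2 overlaps RP11-259N19.1, HILPDA overlaps RP11-155G14.6, ABCA1 overlaps RP11-217B7.2 and LOX overlaps SRFBP1. Some genes under the rule are not reported here. A total of 17 alternative settings were run. The fits without a 25 nM library, the test against 25 nM without 1 library and the microRNA share without single entries were added after seeing the data.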

Additional observations from a re-analysis of the deposited data

How the results depend on the processing

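Over 17 alternative settings 7989 to 10155 genes were called, against 9441, and no gene called in both a setting and the main analysis changed direction. Leaving out 1 of the 6 libraries in turn gave 8331 to 8763 calls, 8206 to 8475 of them shared in the same direction. Deviations from the group means of same-numbered libraries had correlations of -0.002, 0.009 and -0.04, and those of the other pairs were -0.029 to 0.031. With 3 libraries in each group such values cannot exclude that the samples were paired. A fit with the replicate number as a block called 9107 genes, 8952 of them shared in the same direction, and lost KRT7 (0.39, adjusted p = 0.0543) among the named genes. A filter of at least 1 FPKM in at least 6 libraries left 1309 genes of other types and 580 of them higher. As a share of summed FPKM the difference between 50 nM and DMSO was 9.63 percentage points for mitochondrial genes and 2.29 for nuclear genes of other types. The latter was 0.712 percentage points with mitochondrial genes left out of the total. Without 50 nM replicate 2 the median of the HIF system genes turned from -0.38 to 0.029, and over the 6 libraries left out in turn it ranged from -0.407 to 0.029. It is the median of 13 genes and its middle member, HIF1A-AS2, is not called. Among named genes HSF2, CCT7, UQCRFS1, JUND, PSMD12, SREBF1, RXRA, SF3A1, KRT7, MT-ND1 and C6orf183 lost their call under at least 1 setting, and PRDX1 gained one. Rescaling to fragment totals or to the median coding gene moved the median of all genes by 0.069 and 0.087 on the log2 scale. Both are under the size of the list medians given above, other than those of the HSP70, HSP90 and J-protein genes and the 2 cell cycle lists. Each count of 0 members given above for a gene list, a small RNA type or the chromosome 21 stretch was also 0 at an unadjusted p under 0.05 in limma. Those against DMSO were also 0 with voom on the recovered fragments. The exceptions in other settings are LDHB, PFKM and ERBB2 after rescaling, 3 histones without 50 nM replicate 3, FP236383.10 without 50 nM replicate 2, and 1 misc_RNA gene and 1 snoRNA gene without 50 nM replicate 3 and DMSO replicate 1, respectively. Chosen after seeing the data, leaving out each 25 or 50 nM library in turn gave, against 25 nM, 1030 to 1755 coding genes higher and 1929 to 3329 lower, and 404 to 602 of other types higher and 36 to 66 lower. Without each 25 nM library in turn 2941 to 3288 coding genes were higher than in DMSO and 4614 to 5030 lower. Where a setting turned a call or a count, the cause was not tested. Depth limits the genes near 0.5 FPKM most.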
